A study of Mus musculus with 12 samples.

Results

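The Serpina3 cluster is a run of neighbouring serine protease inhibitor genes on mouse chromosome 12, and 10 of its genes (Serpina3b, c, f, g, h, i, j, k, m and n) were followed here among 54532 genes in the table. The members were taken by gene name, and the cluster was chosen by the measured rise of Serpina3m with dextran sulfate sodium (DSS), among the strongest of all genes, so the DSS contrast in Tmem173fl/fl mice is given below as a description with no test. RNA sequencing of total colon RNA was deposited for 4 groups of 3 libraries, to ask what loss of STING (the product of Tmem173) in myeloid cells does to gene expression in colitis. In Tmem173fl/fl mice the Tmem173 gene is floxed and Cre is absent. Tmem173iΔmye mice add Lyz2-Creert2, a Cre recombinase that needs tamoxifen and follows Lyz2, a gene of myeloid cells. Both genotypes, untreated and colitic, had 5 tamoxifen injections. The study's methods give mice aged 6 to 8 weeks, and colitic mice drank DSS, an agent that damages the epithelium of the colon, at 2.5 to 3% over 7 days and then water for 1 day. Untreated mice had plain water. As RNA came from the whole colon, fewer cells of a type and less RNA per cell cannot be told apart. The labels number the colitic Tmem173iΔmye libraries 1, 2 and 5.

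Serpins trap a protease through an exposed loop, the reactive centre loop, which the protease cuts and which then folds into the body of the serpin, carrying the protease with it. The residues of that loop set which proteases are caught, while its hinge is needed for the folding. In human the locus holds SERPINA3, the acute phase protein alpha-1-antichymotrypsin, and in mouse it has expanded into a family of close copies, several of which are known to be made by liver or by tissues exposed to inflammatory cytokines.

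The members are close copies with different loops, so the coding sequence of the loop is shown first for the 8 members that passed the filter on low values given below. The sequences were read from the GENCODE vM21 transcripts on GRCm38, from the start of the hinge to the last codon before a conserved stretch that follows the loop in every one of them. The first 27 bases, in lower case, code for the hinge, and capitals mark the variable stretch. Each loop lies within 1 exon.
Serpina3c, chr12:104147319-104147387, minus strand: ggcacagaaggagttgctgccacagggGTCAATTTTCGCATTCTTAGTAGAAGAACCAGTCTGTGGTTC
Serpina3f, chr12:104220245-104220325, plus strand: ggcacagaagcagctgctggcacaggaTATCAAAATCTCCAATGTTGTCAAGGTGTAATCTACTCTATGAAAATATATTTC
Serpina3g, chr12:104241072-104241149, plus strand: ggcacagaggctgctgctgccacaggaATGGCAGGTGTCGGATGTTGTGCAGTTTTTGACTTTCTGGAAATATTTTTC
Serpina3h, chr12:104253511-104253588, plus strand: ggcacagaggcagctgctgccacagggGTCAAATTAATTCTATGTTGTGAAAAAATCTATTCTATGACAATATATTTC
Serpina3i, chr12:104268480-104268557, plus strand: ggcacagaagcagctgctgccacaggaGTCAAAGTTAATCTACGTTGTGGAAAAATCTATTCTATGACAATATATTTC
Serpina3k, chr12:104345269-104345340, plus strand: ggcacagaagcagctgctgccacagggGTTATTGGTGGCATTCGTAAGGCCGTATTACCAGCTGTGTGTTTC
Serpina3m, chr12:104393769-104393846, plus strand: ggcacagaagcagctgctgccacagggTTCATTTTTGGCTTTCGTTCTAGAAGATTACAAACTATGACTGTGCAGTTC
Serpina3n, chr12:104413448-104413525, plus strand: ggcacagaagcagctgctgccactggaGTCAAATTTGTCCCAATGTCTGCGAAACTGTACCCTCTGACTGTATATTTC

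Over the 28 pairs of these 8 members, the hinge was 81.5 to 100% identical (median 92.6%). The coding sequence was 80.9 to 93.7% identical over its aligned bases (median 85.2%). Pairs with Serpina3g, whose annotated coding sequence has 747 bases, aligned over 644 to 747 bases. For Serpina3h, which has no annotated coding sequence, the reading frame of its transcript that holds the loop was used. The variable stretch was 37.3 to 90.2% identical (median 53.9%, over the longer of the 2 stretches). It was below the identity of the coding sequence in all 28 pairs, though gaps lower the value of the stretch and not that of the coding sequence. Serpina3k and Serpina3m had identical hinges and coding sequences that were 91.9% identical, while their variable stretches were 56.9% identical. Serpina3h, which GENCODE annotates as a transcribed unprocessed pseudogene, was closest to Serpina3i, with 93.7% identity of the reading frame.

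Copies this close can share reads, and how the authors counted a read that fits several genes was not given in the sources used here. Of the 50-base windows in its transcripts, Serpina3h had 21.9% that also occur in a transcript of another gene, Serpina3m 19.1%, Serpina3i 15.9%, Serpina3g 15.5%, Serpina3k 14.04%, Serpina3f 10.6%, Serpina3n 6.90% and Serpina3c 4.25%. With 150-base windows only Serpina3k (0.262%) and Serpina3m (0.331%) had any, and they had them with each other. Serpina3k and Serpina3m are annotated from the same first base of chromosome 12 and share 60 exon bases, which is 2.92% of the exon bases of Serpina3k and 3.49% of those of Serpina3m. The values of the low members Serpina3h, Serpina3i and Serpina3k are therefore uncertain where a more abundant copy could lend them reads.

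**Figure D1:**
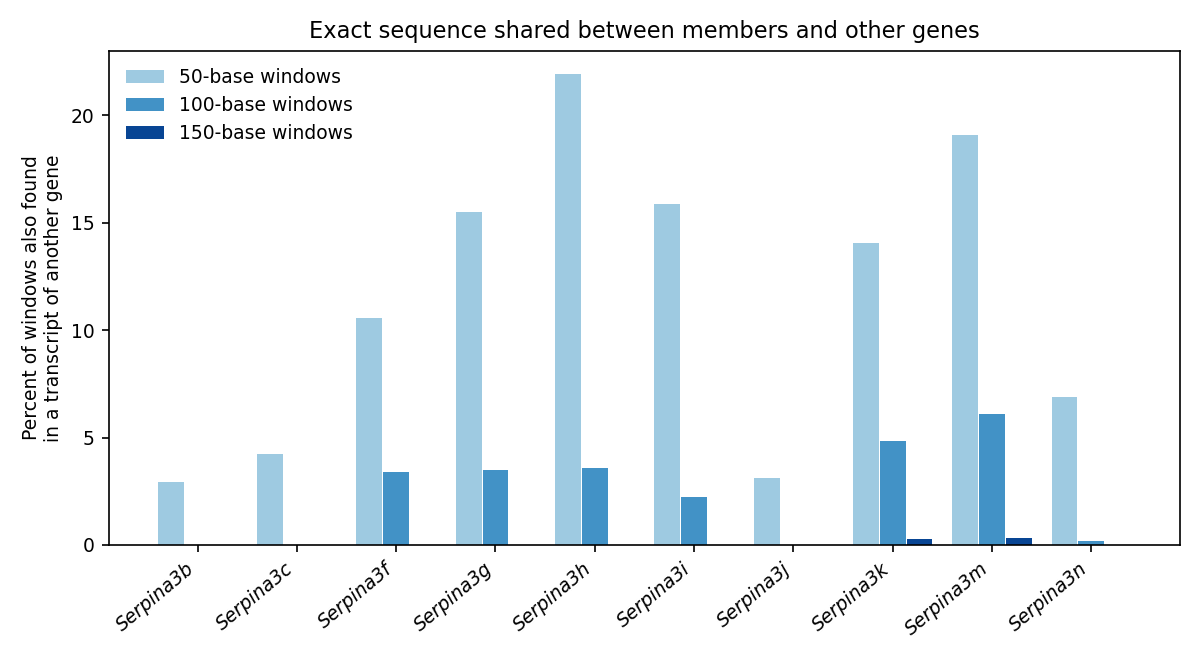
For each member, the bars give the percent of 50-, 100- and 150-base windows of its annotated transcripts that occur, on either strand, in a transcript of another gene. Serpina3h and Serpina3m share the most at 50 bases, and at 150 bases the bars of Serpina3k and Serpina3m are the ones above 0.

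RefSeq promoters on GRCm38.p6 were given for 7 of the 10 members. The part of each promoter that lines up between Serpina3c, f, g, i and n is shown because these members rose together in colitic Tmem173fl/fl mice. All of it lies before the annotated start. Capitals mark matches, on either strand, to TTCNNNGAA (a STAT site), to TTGCNNAA (a C/EBP site) and to an NF-kB site spelled as GGG, any 2 bases and TTTCC. No matches overlapped. STAT3, C/EBP and NF-kB are the factors through which interleukins 6 and 1 act on acute phase genes, and the letters were chosen after the sequences had been seen.
Serpina3c, chr12:104153974-104154050, minus strand: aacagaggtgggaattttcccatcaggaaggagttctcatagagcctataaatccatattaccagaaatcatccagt
Serpina3f, chr12:104214361-104214437, plus strand: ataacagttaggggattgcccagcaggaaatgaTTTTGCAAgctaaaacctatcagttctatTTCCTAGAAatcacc
Serpina3g, chr12:104236052-104236132, plus strand: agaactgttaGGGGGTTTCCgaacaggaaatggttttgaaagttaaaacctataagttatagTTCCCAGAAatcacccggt
Serpina3i, chr12:104262958-104263038, plus strand: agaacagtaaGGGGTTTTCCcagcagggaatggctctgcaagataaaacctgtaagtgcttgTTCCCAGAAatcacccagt
Serpina3n, chr12:104406527-104406603, plus strand: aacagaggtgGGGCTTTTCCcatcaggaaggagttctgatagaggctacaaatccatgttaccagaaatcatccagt

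Serpina3g and Serpina3i held TTCNNNGAA and the NF-kB letters, Serpina3f held TTCNNNGAA and TTGCNNAA, Serpina3n held the NF-kB letters, and Serpina3c held none of the 3 in this stretch. In the 250 bases before the start, TTCNNNGAA occurred in 7.02% of 32851 RefSeq promoters, TTGCNNAA in 9.56% and the NF-kB letters in 1.41%, a longer stretch than those shown. Over the same 250 bases Serpina3b, which had 2 reads in all, held TTGCNNAA, Serpina3f held it again nearer the start, and Serpina3c and Serpina3j held none of the 3. The promoters of Serpina3c and Serpina3n were 92.7% identical over 247 aligned bases, and the other pairs of the 5 ran from 68.4 to 82.9%. A match is a run of letters and was not tested as a binding site.

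Without treatment the cluster was carried by Serpina3n, Serpina3g and Serpina3f. Serpina3n (chr12:104406729-104414329) makes a secreted inhibitor that is known to bind granzyme B and neutrophil serine proteases. It was at 16.9, 13.96 and 15.5 FPKM (reads scaled by gene length and library size, so that genes of unlike length can be compared) in untreated Tmem173fl/fl libraries 1, 2 and 3. In untreated Tmem173iΔmye libraries 1, 2 and 3 it was at 30.3, 13.2 and 9.77 FPKM. Serpina3g (chr12:104236245-104241939), an intracellular member known for inhibiting cysteine cathepsins, was at 15.3, 7.55 and 12.2 FPKM and at 7.57, 13.4 and 11.8 FPKM in the same libraries. Serpina3f (chr12:104214544-104221129) was at 7.26, 4.72 and 6.43 FPKM and at 3.21, 6.92 and 5.27 FPKM. The genotypes overlapped for all 3 genes. In order of mean FPKM in untreated Tmem173fl/fl mice, Serpina3n (15.5 ± 1.47, SD, n = 3) was followed by Serpina3g (11.7 ± 3.90). Their ranges of libraries overlapped, and Serpina3n was above Serpina3g within each of the 3 libraries. Serpina3f (6.14 ± 1.30) came next, with its highest library below the lowest of Serpina3g.

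The remaining members had 20 reads or fewer in each untreated library. Serpina3m (chr12:104338486-104394257) had 0, 1 and 2 reads in untreated Tmem173fl/fl libraries and 9, 1 and 2 in untreated Tmem173iΔmye libraries. Serpina3i (chr12:104263122-104269372) had 2, 1 and 2 reads and then 4, 4 and 2. Serpina3h (chr12:104247905-104253669) had 2, 3 and 5 reads and then 2, 1 and 1. Apart from the 9 reads of Serpina3m in 1 library, these counts were at or near the 3 reads per library taken as the floor of detection. Serpina3k (chr12:104338486-104346144), known as a kallikrein-binding protein made by liver, had 19, 7 and 0 reads and then 4, 6 and 2. Serpina3c (chr12:104146382-104153870), which lies on the other strand, had 1, 15 and 7 reads and then 11, 20 and 13. Serpina3b (chr12:104127996-104139545) had 2 reads and Serpina3j (chr12:104314553-104320725) 1 read over all 12 libraries, and neither passed the filter on low values (3 or more libraries with an FPKM of 0.1 or above), so 8 of the 10 members entered the tests.

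The genotypes were compared without DSS to ask whether the deletion alone moved the cluster. By edgeR, 0 of the 8 members tested were called (Benjamini-Hochberg adjusted p under 0.05 over all 24102 genes tested, with a log2 fold change of 1 or more in size), against 0% of all genes tested. The 8 include Serpina3m and Serpina3i, which passed the filter only through colitic libraries and had few reads here. The untreated Tmem173fl/fl libraries of Serpina3m also helped to choose the cluster, so nothing is read from these 2 members. At an unadjusted p under 0.05 there were 0 members and 720 genes. DESeq2 and limma called 0 members each, and 3 genes each. Log2 fold changes of iΔmye against fl/fl were 0.20 with a standard error (SE) of 0.31 for Serpina3n, -0.09 (SE 0.26) for Serpina3g and -0.26 (SE 0.26) for Serpina3f, all with an edgeR adjusted p of 1. The value of Serpina3n rested on replicate 1 of the untreated Tmem173iΔmye group, without which it was -0.42. That of Serpina3g became 0.12 without the same library and 0.15 without untreated Tmem173fl/fl replicate 1. Serpina3h alone had groups that did not overlap after scaling to library size, lower in Tmem173iΔmye libraries, against 3.68% of all genes tested in that direction. Its read counts, at or near the floor, met at 2 reads.

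**Figure D2:**
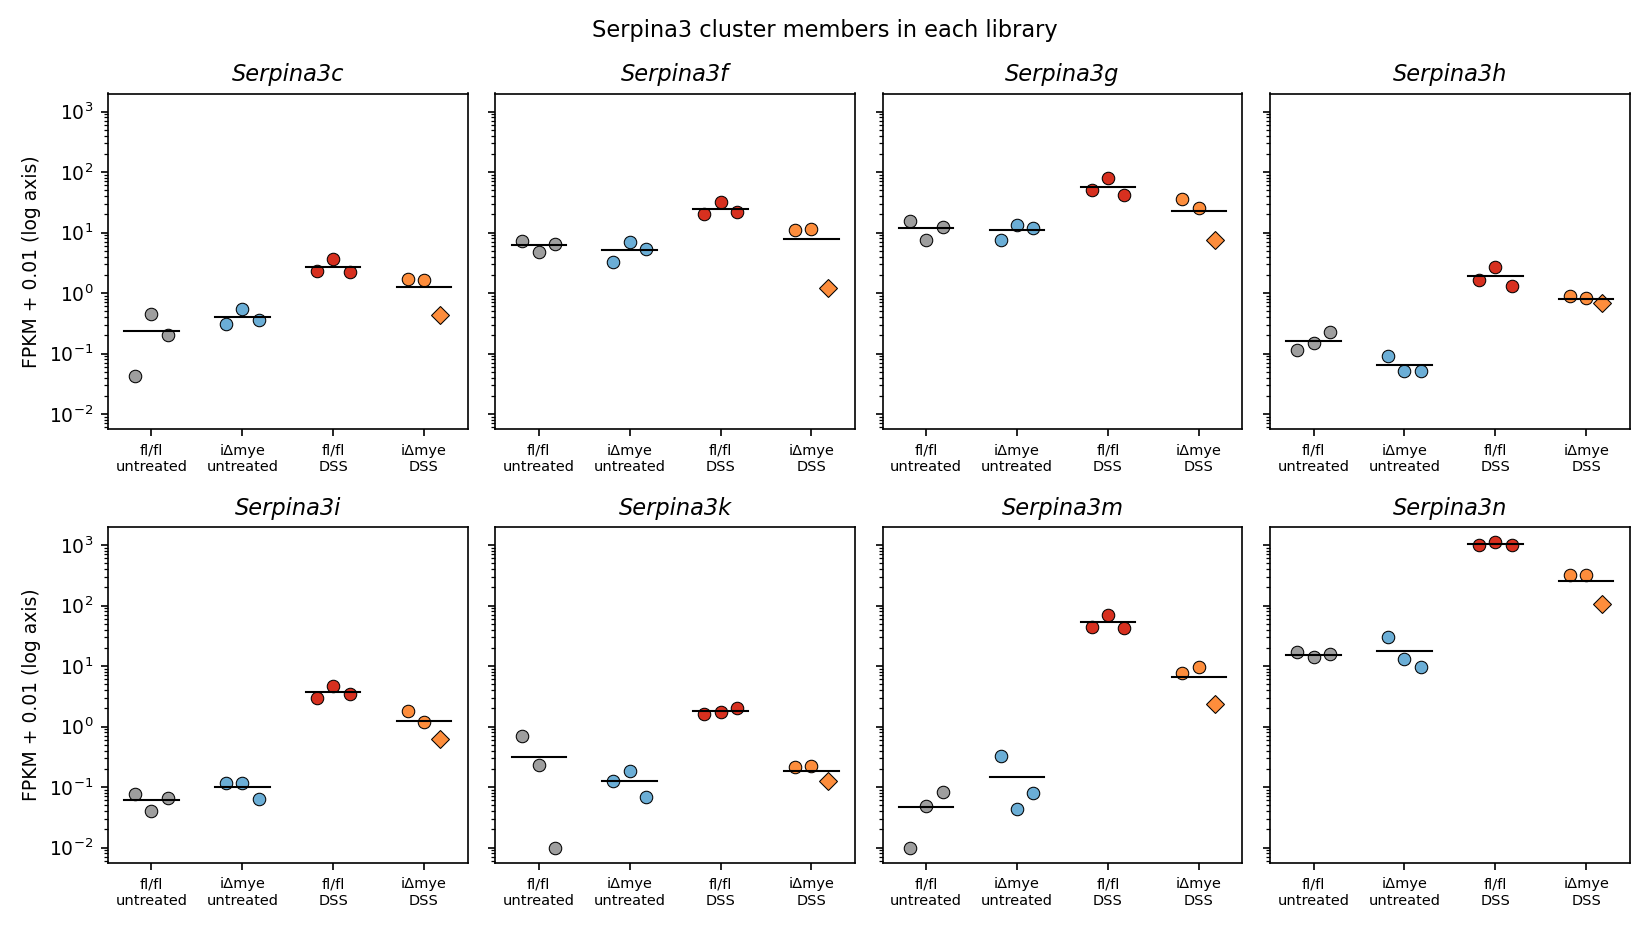
FPKM of the 8 members that passed the filter in each library, on a log axis after adding 0.01, with a line at the mean of each group and a diamond for colitic Tmem173iΔmye replicate 5. Each member lay higher in the 3 colitic Tmem173fl/fl libraries than in the untreated ones, and the diamond was the lowest of the 6 colitic libraries in each panel.

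DSS in Tmem173fl/fl mice is the contrast that chose the cluster. There Serpina3n reached 1017, 1110 and 1002 FPKM in libraries 1, 2 and 3, which placed it 17th, 16th and 19th among all genes by FPKM, from between the 3365th and the 3910th place without treatment. It took 0.216 to 0.257% of all counts in those libraries, against 0.00278 to 0.00334% in untreated ones. Serpina3m went from 0 to 2 reads to 1393, 2531 and 1066 reads (44.4, 70.2 and 42.9 FPKM), which is at least 433-fold higher when the untreated libraries are put at 3 reads each. Serpina3i went from at most 2 reads to 120, 215 and 112 reads (2.95, 4.61 and 3.48 FPKM), at least 39.3-fold higher by the same bound.

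In the same contrast Serpina3g was at 49.6, 79.0 and 41.1 FPKM, a log2 fold change of 2.30 (SE 0.30), and Serpina3f at 20.3, 31.3 and 22.1 FPKM, a log2 fold change of 2.02 (SE 0.22). Serpina3n had a log2 fold change of 6.09 (SE 0.18). Serpina3h had 42, 82 and 27 reads with a log2 fold change of 3.59 (SE 0.50), Serpina3c 94, 167 and 72 reads with 3.58 (SE 0.56), and Serpina3k 60, 74 and 59 reads with 2.60 (SE 0.75). The value of Serpina3k was 3.99 without untreated Tmem173fl/fl replicate 1 and 1.99 without replicate 3 of that group, and that of Serpina3c was 4.49 without replicate 2. For all 8 members every colitic Tmem173fl/fl library was above every untreated one. Of all genes tested 14.9% were called higher in this contrast by edgeR, and 23.9% had colitic libraries all above the untreated ones. The 8 include Serpina3m, whose rise chose the cluster, and Serpina3i. Both passed the filter only through colitic libraries, so nothing is read from that count.

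The DSS contrast in Tmem173iΔmye mice asks whether the rise is seen when the myeloid Cre is present. Serpina3m, whose rise with DSS chose the cluster, is given there as a description. Serpina3n was at 324, 319 and 107 FPKM in libraries 1, 2 and 5 of the colitic group, all above the untreated Tmem173iΔmye libraries, with a log2 fold change of 3.80 (SE 0.52, edgeR adjusted p 0.00734). Serpina3m had 185, 266 and 68 reads (7.66, 9.50 and 2.34 FPKM), with a log2 fold change of 5.50 (SE 0.75) that was 6.85 without untreated Tmem173iΔmye replicate 1. Serpina3i had 57, 43 and 23 reads, with a log2 fold change of 3.70 (SE 0.60, edgeR adjusted p 0.0145). It passed the filter only through colitic libraries, so it had to be high there to be tested and its call is no support for a rise. Library 5 was the lowest of its group for each of these genes. Serpina3h, whose untreated libraries were all at or below 3 reads, had 18, 19 and 16 reads, at least 6.34-fold higher by the bound (edgeR adjusted p 0.0222). Serpina3n, Serpina3i and Serpina3h were called higher, against 1.48% of all genes tested, and 4 of the 7 members with a test were not called. As Serpina3m too passed the filter only through colitic libraries, nothing is read from the number of members called.

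The 4 members that were not called overlapped between untreated and colitic Tmem173iΔmye libraries. Serpina3g was at 36.1, 25.4 and 7.54 FPKM in colitic libraries 1, 2 and 5, with a log2 fold change of 1.05 (SE 0.45, edgeR adjusted p 0.297). Serpina3f was at 11.1, 11.4 and 1.19 FPKM, with a log2 fold change of 0.60 (SE 0.63, edgeR adjusted p 0.705). For Serpina3f library 5 lay below every untreated Tmem173iΔmye library. For Serpina3g it was about level with the lowest of them, at 268 reads against 269 in untreated Tmem173iΔmye replicate 1. Serpina3c had 53, 59 and 16 reads, with a log2 fold change of 1.66 (SE 0.56, edgeR adjusted p 0.184). Serpina3k had 6, 7 and 4 reads, against 4, 6 and 2 without treatment, with a log2 fold change of 0.59 (SE 0.76, edgeR adjusted p 0.765).

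Single libraries moved these calls. Without colitic Tmem173iΔmye replicate 5, 6 members were called higher and the calls over the whole table went from 501 to 1469 genes. There Serpina3g (log2 fold change 1.501, adjusted p 0.00541), Serpina3c (2.09, adjusted p 0.0147) and Serpina3f (1.14, adjusted p 0.0413) joined the 3, by the same edgeR test. Without untreated Tmem173iΔmye replicate 2 or replicate 3, 0 members were called, while 51 and 57 genes were called over the whole table. Without replicate 1 of that group 1 member and 72 genes were called, and without colitic replicate 1 or replicate 2, 2 members, with 238 and 372 genes. Serpina3n had a log2 fold change of 3.53 to 4.43 in these 6 fits, the highest without untreated replicate 1, with adjusted p from 1.48e-04 to 0.0961. On log2(FPKM + 0.1), limma called Serpina3h alone (adjusted p 0.0260), with Serpina3i at 0.0795 and Serpina3n at 0.0981.

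**Figure D3:**
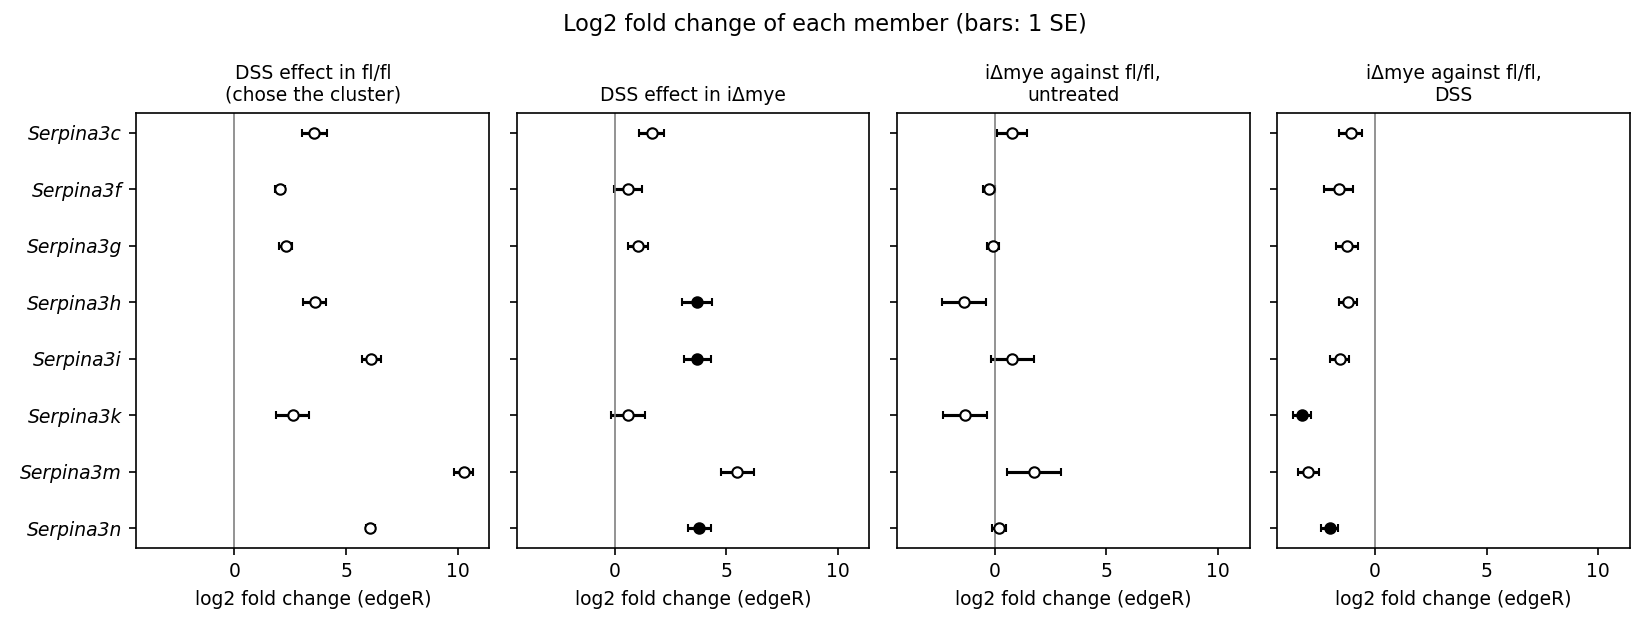
Log2 fold changes by edgeR with bars of 1 SE for the 8 members, in 4 panels for DSS in each genotype and for iΔmye against fl/fl without and with DSS. Filled points were called, and points of the first panel, which chose the cluster, and of Serpina3m in the other panels with colitic libraries carry no test. The values of Serpina3m and Serpina3i in the first panel, of Serpina3h in the second and of all 3 in the third are fitted with a group at the floor of detection.

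Between colitic genotypes each of the 8 members that passed the filter had a lower level in Tmem173iΔmye mice. Serpina3n was at 1043 ± 58.5 FPKM in colitic Tmem173fl/fl and 250 ± 124 FPKM in colitic Tmem173iΔmye libraries (SD, n = 3 each), 4.11-fold lower, with a log2 fold change of -2.04 (SE 0.40, edgeR adjusted p 0.0343). Serpina3k was at 60, 74 and 59 reads in colitic Tmem173fl/fl libraries and at 6, 7 and 4 in colitic Tmem173iΔmye libraries, 9.67-fold lower, with a log2 fold change of -3.27 (SE 0.40, edgeR adjusted p 0.0125). These 2 members were called lower, against 1.99% of all genes tested. Serpina3m was at 52.5 ± 15.3 and 6.498 ± 3.71 FPKM, 7.99-fold lower, and is given with no test because the colitic Tmem173fl/fl libraries helped to choose it.

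The other members tested lay lower but were not called. Log2 fold changes were -1.59 (SE 0.41, edgeR adjusted p 0.0807) for Serpina3i, -1.23 (SE 0.41, adjusted p 0.142) for Serpina3h and -1.28 (SE 0.49, adjusted p 0.196) for Serpina3g. For Serpina3f the value was -1.63 (SE 0.64, adjusted p 0.207) and for Serpina3c -1.10 (SE 0.49, adjusted p 0.256). DESeq2 called Serpina3i in addition (adjusted p 0.00494). The colitic groups did not overlap for any of the 8 members, and 14.8% of all genes tested were lower in that way. The 8 include Serpina3m, which helped to choose the cluster, and Serpina3i, which passed the filter only through colitic libraries, so nothing is read from that count.

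Colitic Tmem173iΔmye replicate 5 had the lowest level of the 6 colitic libraries for all 8 members. Without it Serpina3n and Serpina3k were still called (log2 fold change -1.68, adjusted p 0.0137, and -3.05, adjusted p 0.0153, edgeR). Without colitic Tmem173fl/fl replicate 1 or colitic Tmem173iΔmye replicate 2, 0 members were called, and 27 and 46 genes in all, against 678 in the reported fit. Without colitic Tmem173fl/fl replicate 2 or replicate 3, 1 member was called, with 204 and 123 genes, and without colitic Tmem173iΔmye replicate 1, 3 members and 1593 genes were. The log2 fold change of Serpina3n lay between -2.28 and -1.68 in these 6 fits (adjusted p 0.0137 to 0.130) and that of Serpina3k between -3.40 and -3.05 (adjusted p 0.0153 to 0.0680). By limma on log2(FPKM + 0.1) Serpina3n had an adjusted p of 0.106 and Serpina3k one of 0.0324.

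Whether DSS moved the members by a different amount in the 2 genotypes was tested with an interaction term over all 12 libraries. By edgeR 0 of the 7 members with a test were called, against 2.55% of all genes tested, and 2 had an unadjusted p under 0.05 (Serpina3n and Serpina3i), as did 4361 of the 24102 genes tested. Serpina3i passed the filter only through colitic libraries and its untreated Tmem173fl/fl libraries were at the floor, so its fitted difference depends on the prior count and is no exact size. DESeq2 called 1 member and limma 0. Serpina3n had a difference of -2.23 on the log2 scale (SE 0.57, edgeR adjusted p 0.0558), which DESeq2 put at -2.26 (adjusted p 0.00251). Serpina3i had -2.36 (SE 0.79, edgeR adjusted p 0.131), Serpina3c -1.86 (SE 0.87, 0.280), Serpina3k -1.93 (SE 1.19, 0.419), Serpina3f -1.35 (SE 0.77, 0.377) and Serpina3g -1.17 (SE 0.62, 0.341). Serpina3h had an edgeR adjusted p of 0.938, and its untreated Tmem173iΔmye libraries were at the floor, so no size is given. No size is given for Serpina3m either, whose untreated Tmem173fl/fl libraries were at the floor. Serpina3k had -3.32 and -1.32 without untreated Tmem173fl/fl replicates 1 and 3, Serpina3c -2.79 without replicate 2 of that group, and Serpina3n -1.60 without untreated Tmem173iΔmye replicate 1. For Serpina3n the edgeR adjusted p was 0.0485 without colitic Tmem173iΔmye replicate 5, 0.0268 without colitic Tmem173iΔmye replicate 1 and 0.0473 without untreated Tmem173iΔmye replicate 3, and from 0.0680 to 0.130 without any other single library. For Serpina3i it was 0.0388 without colitic Tmem173iΔmye replicate 1.

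The make-up of the cluster changed with DSS in both genotypes. Of the summed FPKM of the 10 members, Serpina3n held 41.9 to 51.5% in untreated Tmem173fl/fl libraries and 85.2 to 89.7% in colitic ones, and 35.6 to 72.2% and 84.5 to 89.3% in Tmem173iΔmye libraries. Serpina3g fell from 27.9 to 37.9% to 3.68 to 6.06% of the sum in Tmem173fl/fl libraries, while its own FPKM was higher. Serpina3m held at most 0.206% in untreated and 3.84 to 5.38% in colitic Tmem173fl/fl libraries, and 1.95 to 2.57% in colitic Tmem173iΔmye libraries. The ratio of Serpina3n to Serpina3m was 15.8 to 23.4 in colitic Tmem173fl/fl and 33.6 to 45.8 in colitic Tmem173iΔmye libraries. These shares and ratios are a description with no test, as the colitic Tmem173fl/fl values of Serpina3m helped to choose the cluster.

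**Figure D4:**
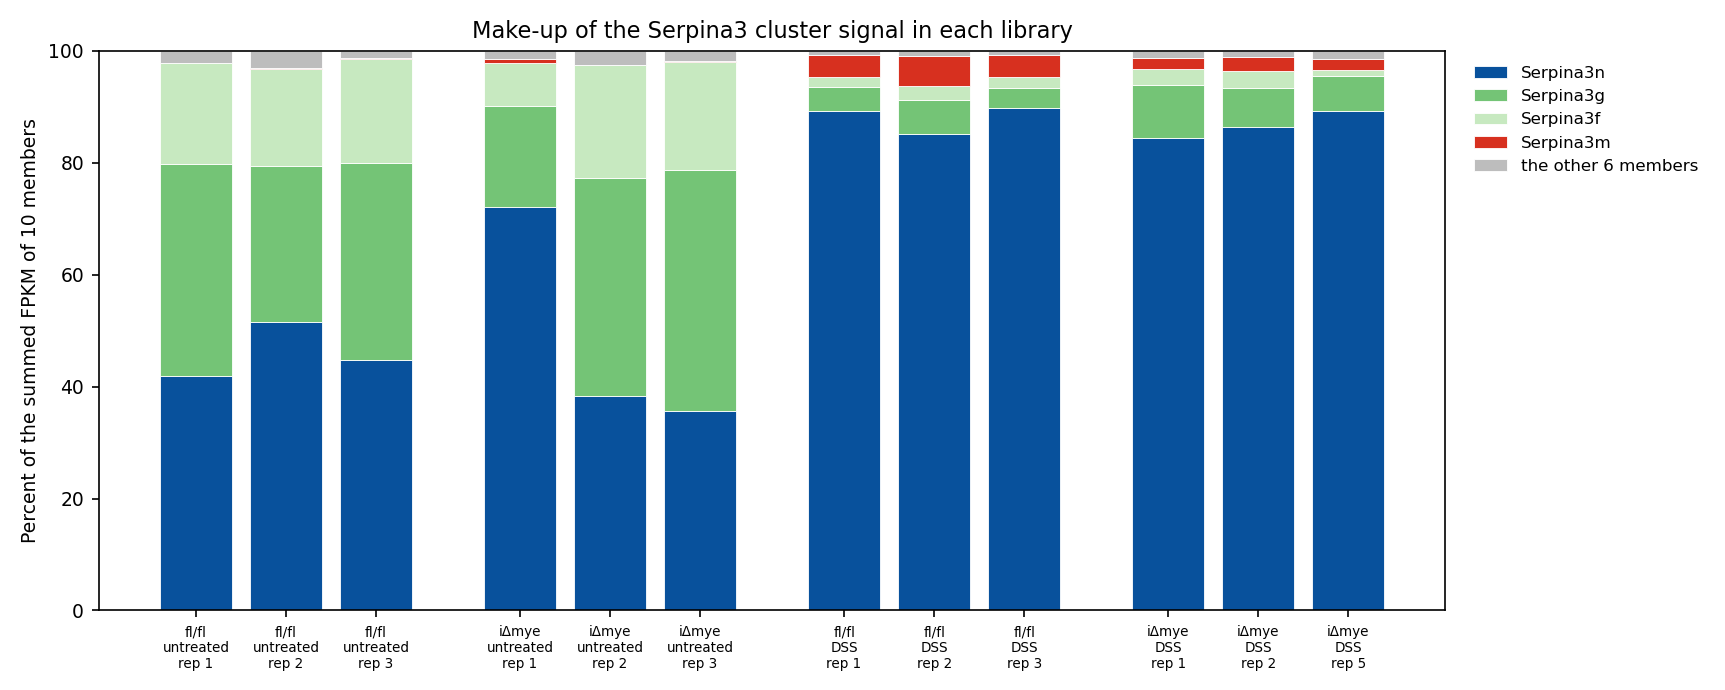
Percent of the summed FPKM of the 10 members held by Serpina3n, Serpina3g, Serpina3f, Serpina3m and the other 6 members in each library. Serpina3n holds at least 84.5% in each of the 6 colitic libraries and at most 72.2% in each untreated one.

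The genes next to the members had few reads. Of the 20 other annotated genes from Serpina1c to Gm10000 around and between the members, 4 passed the filter, and none of the 20 had more than 29 reads in any library. The neighbour with the most reads was Serpina9, with at most 29, and Serpina3a had none. Within the cluster, the pseudogenes Serpina3d-ps and Serpina3e-ps had at most 2 and 4 reads in a library, and Serpina3l-ps had none.

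Cytokines that are known to induce acute phase serpins, with their receptors and signal transducers, were read beside the members from a list of 25 genes, all of which were tested. With DSS in Tmem173fl/fl mice 14 were called higher and 3 lower, with a median log2 fold change of 1.70 against 0.03 over all genes tested. In Tmem173iΔmye mice 10 were called higher and 0 lower by edgeR (median 1.10 against 0.02), where DESeq2 called 13 and limma 3. Over all genes tested edgeR called 14.9% higher with DSS in Tmem173fl/fl mice and 1.48% in Tmem173iΔmye mice. The cytokines Il6, Il11 and Osm went from 0.0360, 0.112 and 0.147 FPKM to 10.01 ± 6.05, 46.8 ± 33.0 and 6.74 ± 1.71 FPKM (SD, n = 3) in Tmem173fl/fl mice. In colitic Tmem173iΔmye mice they were at 1.91 ± 0.309, 4.77 ± 1.71 and 1.56 ± 0.787 FPKM. Each of the 3 was called higher with DSS in both genotypes. Other cytokines of the list had the higher mean in colitic Tmem173iΔmye mice, with no call between the colitic genotypes. Tnf was at 3.81 ± 1.57 FPKM in colitic Tmem173fl/fl mice and 8.50 ± 0.970 FPKM in colitic Tmem173iΔmye mice (edgeR adjusted p 0.0969). Il22 was at 0.356 ± 0.155 and 1.29 ± 0.998 FPKM, and Ifng at 0.188 ± 0.255 and 0.616 ± 0.628 FPKM, in the same order.

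Between colitic genotypes edgeR called 6 of the 25 lower and 0 higher (median -0.55 against 0.02 over all genes tested), against 1.99% of all genes tested called lower. DESeq2 called 9 of the 25 and limma 0, so these calls depend on the test. The 6 called by edgeR were Il11 (log2 fold change -3.27, SE 0.59, edgeR adjusted p 0.0300), Il6 (-2.36, SE 0.46, 0.0346), Osm (-2.09, SE 0.43, 0.0406), Cebpb, Cebpd and Il1r1. Cebpb and Cebpd make the C/EBP factors beta and delta, and Il1r1 the interleukin-1 receptor. For DSS by genotype these last 3 were called, with differences of -2.27 (SE 0.36, adjusted p 0.00712), -1.53 (SE 0.36, 0.0390) and -1.40 (SE 0.27, 0.0174) on the log2 scale. Without treatment edgeR called 0 of the 25, with 0 at an unadjusted p under 0.05 and 0 by DESeq2 and by limma. The most abundant of the list over 12 libraries were Ifngr1, Tnfrsf1a, Irf1 and Socs3, at mean FPKM of 87.8, 60.9, 58.6 and 43.4. Socs3, a gene that STAT3 switches on, was at 6.503 ± 1.34 and 112 ± 14.9 FPKM in untreated and colitic Tmem173fl/fl mice and at 46.9 ± 28.4 in colitic Tmem173iΔmye mice.

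Proteases that serpins of this kind are known to bind were read from a list of 16, of which 14 were tested. With DSS in Tmem173fl/fl mice 4 were called higher and 2 lower (median -0.15 against 0.03), with Ctsk (3.44, SE 0.20, edgeR adjusted p 2.40e-06), Ctsl (2.496, SE 0.23, 3.27e-05) and Prtn3 (2.47, SE 0.44, 0.00175) the 3 with the largest change. Ctsk and Ctsl make the cysteine cathepsins K and L, and Prtn3 makes the neutrophil proteinase 3. Gzmb, the gene of granzyme B, was called lower (-2.15, SE 0.24, 1.01e-04). Of all genes tested, 14.9% were called higher and 7.61% lower in this contrast. In Tmem173iΔmye mice 0 of the 14 were called by edgeR, with 6 at an unadjusted p under 0.05, 1 called by DESeq2 and 0 by limma. Between colitic genotypes Ctsl (-1.78, SE 0.24, 0.0158) and Ctsk (-1.50, SE 0.19, 0.0137) were called lower by edgeR and 0 higher. Of all genes tested edgeR called 1.99% lower there, and of the list DESeq2 called 2 and limma 1. The neutrophil proteases Elane and Ctsg were not above 0.217 FPKM in the mean of any group. Klk1, a kallikrein, and Ctss, Ctsb and Ctsl were the most abundant, at mean FPKM of 479.5, 204, 141 and 29.9.

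Of 29 other serpins 21 were tested, and 10 were called higher and 2 lower with DSS in Tmem173fl/fl mice (median 0.65 against 0.03). Among all genes tested, 14.9% were called higher and 7.61% lower there. Serpine2, an inhibitor of thrombin, had a log2 fold change of 4.72 (SE 0.25, edgeR adjusted p 1.41e-06) and Serpina9 one of -3.65 (SE 0.69, 0.00245). In Tmem173iΔmye mice Serpine2 and Serping1, the complement C1 inhibitor, were called higher, at 1.67 and 1.04 (edgeR adjusted p 0.0145 and 0.0409). Both were called lower between colitic genotypes, at -2.58 and -1.33 (adjusted p 0.00571 and 0.0350), and in the interaction, at -2.98 and -1.21 (adjusted p 0.00290 and 0.0451). Of the list, limma called 0 and DESeq2 5 with DSS in Tmem173iΔmye mice. Between colitic genotypes limma called 2 and DESeq2 8. Serpinb1a, an inhibitor of neutrophil proteases inside cells, was the most abundant of the list at a mean of 162 FPKM, followed by Serping1, Serpinb6a and Serpinh1 at 111, 64.5 and 45.3.

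The genes whose log2(FPKM + 0.1) was most like that of a member over the 12 libraries are given by Pearson's r as a description, since the libraries share their group. Serpina3n was closest to Serpina3m (0.99), Mmp10 (0.99), Serpina3i (0.99), Cxcr2 (0.99) and Nfil3 (0.99). Serpina3m was closest to Mmp10, Serpina3n, Lgi2, Cxcl3 and Il1r1, and Serpina3i to Itgam, Mmp10, Cpxm1, Serpina3n and Abca1, all at 0.99. Mmp10, a matrix metalloprotease, was therefore among the 5 genes closest to each of the 3 with 0.1 added to FPKM. It was not among those of Serpina3i with 1 added, nor among those of Serpina3m with 0.01 added. Serpina3g had other neighbours, Spi1 (0.98), Tnfaip2, Sla, Icam1 and Bcl2l11 (0.97 each), where Spi1 is the myeloid and lymphoid factor PU.1. Serpina3f was closest to Sytl3 (0.97), Ccrl2, Washc2, Slfn3 and Il18rap (0.94 each). Serpina3h was closest to Rims3 (0.99), Cnrip1, Bst1, Antxr1 and Peg3. Serpina3c was closest to Plin4, Wipf3, Vsig10l, Hoxb5 and Grk3, and Serpina3k to Plekhg4, Maml1, Fgb, Ebf4 and Arxes1, at r of 0.93 to 0.97. With a pseudocount of 1 or 0.01 from 0 to 4 of the 5 names were shared, so these lists are loose.

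Markers of several cell types moved with the cluster. The summed level of 8 neutrophil markers was 5.89 to 12.8 CPM (counts scaled by library size with TMM factors) in the 6 untreated libraries, 440 to 682 CPM in colitic Tmem173fl/fl libraries and 23.3 to 119.7 CPM in colitic Tmem173iΔmye libraries, the lowest in replicate 5. By edgeR all 8 were called higher with DSS in Tmem173fl/fl mice, against 14.9% of all genes tested. Between colitic genotypes edgeR called 5 of the 8 lower, against 1.99% of all genes tested, while DESeq2 called 6 and limma 0. The sum of 8 fibroblast markers was 1175 to 1491 CPM in untreated, 8032 to 10230 in colitic Tmem173fl/fl and 2333 to 3423 in colitic Tmem173iΔmye libraries. The sum of 8 monocyte and macrophage markers was 268 to 477, 877 to 1256 and 566 to 835 CPM. That of 8 endothelial markers was 98.2 to 124, 435 to 583 and 168 to 324 CPM. That of 8 epithelial markers was 19060 to 30750, 11150 to 17620 and 14290 to 23610 CPM, and its defining genes Epcam and Muc2 were at no less than 509.8 and 5695 CPM in any library. The edgeR test called 7 fibroblast, 6 monocyte and macrophage and 8 endothelial markers higher with DSS in Tmem173fl/fl mice. It called 1 epithelial marker higher and 5 lower there. Between colitic genotypes it called 5 fibroblast, 1 monocyte and macrophage and 2 endothelial markers lower. DESeq2 called 6, 2 and 3 there and limma 1, 0 and 0. In the interaction edgeR called 4, 1 and 2 of them lower and 0 neutrophil markers, against 1.61% of all genes tested.

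Liver is a known source of serpins, so hepatocyte markers were summed too. The sum of 10 such markers was 17.9 to 36.6 CPM in untreated libraries, 32.9 to 40.3 CPM in colitic Tmem173fl/fl libraries and 22.6 to 30.7 CPM in colitic Tmem173iΔmye libraries. Of the 10, 4 were called higher and 2 lower with DSS in Tmem173fl/fl mice and 3 lower between colitic genotypes, among them the fibrinogen genes Fgb (-4.42, SE 0.78, edgeR adjusted p 0.0278) and Fgg (-5.00, SE 0.74, 0.0181). Of all genes tested, 14.9% were called higher and 7.61% lower with DSS in Tmem173fl/fl mice, and 1.99% lower between colitic genotypes. Between colitic genotypes DESeq2 called 4 of the 10 and limma 1. The defining marker Alb went from a mean of 2.18 to 0.407 FPKM with DSS in Tmem173fl/fl mice and did not exceed 10.4 CPM in any library. Fga, Fgb and Fgg went the other way, from 0.0326, 0.0373 and 0.0117 to 1.04, 0.771 and 0.775 FPKM. In colitic Tmem173iΔmye mice Alb was at 0.205 FPKM and these fibrinogen genes at 0.0476, 0.0339 and 0.0211 FPKM. T and NK cell markers summed to 19.4 to 106 CPM, adipocyte markers to 28.7 to 389.5 CPM and smooth muscle markers to 2492 to 4116 CPM over all libraries. Pancreas acinar markers ran from 103 to 10640 CPM with the highest value in the colitic Tmem173iΔmye group, and edgeR, DESeq2 and limma called 0 of these 8 for DSS in either genotype, with 0 at an unadjusted p under 0.05. The part of any of these cells in the level of the members was not tested.

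**Figure D5:**
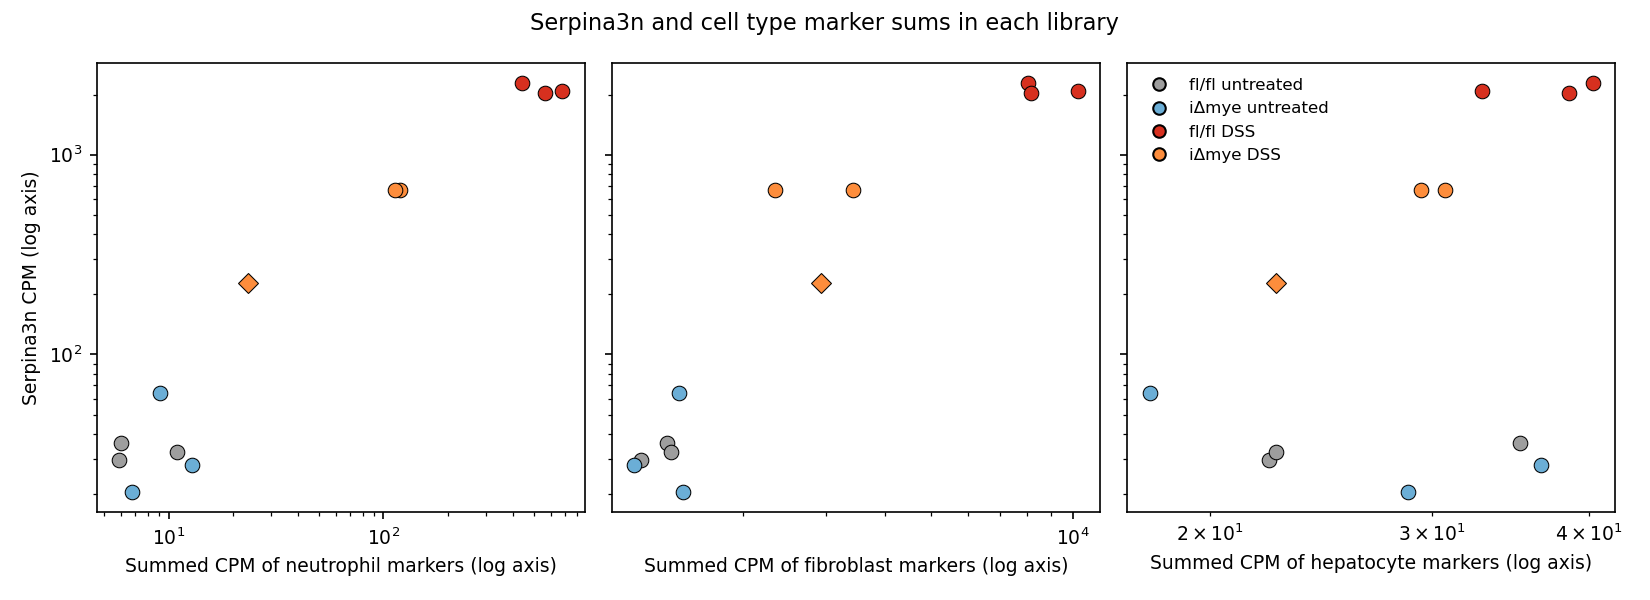
Serpina3n in CPM against the summed CPM of neutrophil, fibroblast and hepatocyte markers in each of the 12 libraries, on log axes, with a diamond for colitic Tmem173iΔmye replicate 5. The colitic Tmem173iΔmye libraries lie between the untreated and the colitic Tmem173fl/fl libraries for the neutrophil and fibroblast sums, while hepatocyte sums of untreated and colitic libraries overlap.

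Across the series, totals were 13823237 to 18718915 counts per library. The targeted gene Tmem173 was at 37.6 to 44.0 CPM in colitic Tmem173fl/fl and 23.8 to 47.8 CPM in colitic Tmem173iΔmye libraries, so its level in whole colon overlapped between the genotypes. The female transcript Xist was at 1838, 1225 and 1450 CPM in untreated Tmem173fl/fl replicate 3, untreated Tmem173iΔmye replicate 3 and colitic Tmem173iΔmye replicate 5, and below 0.6 CPM in the other 9 libraries, which include all colitic Tmem173fl/fl ones. The part of this difference between libraries in the level of the members was not tested.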

How the data were processed

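The authors had total colon RNA sequenced, and the submitters' processing notes name CASAVA 1.8, fastp, HISAT2 2.0.5, featureCounts 1.5.0-p3, DESeq2 1.20.0 and GRCm38 (mm10). The annotation release and the use of strand were not given in the sources used here. The authors deposited whole-number counts per gene and FPKM values for each library in 1 table. Its columns of fold changes, p-values and group means, which are the authors' comparisons, were not used. Gene coordinates and lengths of all 10 members equalled those of GENCODE vM21.

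Counts were tested in R 4.3.3 with edgeR 4.0.16 (TMM scaling, glmQLFit and glmQLFTest, Benjamini-Hochberg adjustment) over 24102 of 54532 genes where 3 or more libraries had a deposited FPKM of 0.1 or above, with only the groups compared in a fit. The study's methods state DESeq2, a log2 fold change of at least 1 in size and a p-value of at most 0.05. Its figure legend for the colitic genotypes gives another fold change cutoff, with an adjusted p under 0.05. Here DESeq2 1.42.0 and limma 3.58.1 on log2(FPKM + 0.1) were alternatives. The SE is the log2 fold change divided by the square root of F. Levels are deposited FPKM or CPM from counts and TMM. A library with 3 or fewer reads was at the floor. Library totals were 13823237 to 18718915 counts, which limits genes of a few reads. The labels do not say whether libraries of a group came from separate mice, so p-values measure the spread between libraries. No replicates were duplicates.

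Members, gene lists and marker lists were chosen with earlier results of these data known. Serpina3m, whose rise chose the cluster, was not tested in any comparison with colitic libraries. Named genes were all members, the 4 most abundant genes of each list, up to 3 called genes of a list with the largest change in a comparison, and the 5 genes most like each member with over 3 reads in at least 6 libraries. Others were named after their values were seen. A gene of the list of other serpins that this rule names is not reported here. Sequences came from GENCODE vM21 and RefSeq (GRCm38.p6), aligned with Biopython 1.88 and MAFFT 7.526. Alternatives were RLE scaling, other filters, tests and thresholds, 1 fit of all libraries, the replicate number as a block and leaving out each library.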

Additional observations from a re-analysis of the deposited data

How the results depend on the processing

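With 3 libraries a group, low members rest on few reads and single libraries move the calls. Members called for DSS in Tmem173iΔmye mice numbered 3 in the reported fit, 1 by limma on log2(FPKM + 0.1), 5 at an unadjusted p and 0 to 6 with a library left out. Between colitic genotypes there were 2, with 1 by limma, 6 at an unadjusted p of at most 0.05 and 0 to 3 with a library left out. In the interaction there were 0, with 1 with no filter, 1 with the filter raised to an FPKM of 1, 1 by DESeq2, 2 at an unadjusted p and 0 to 2 with a library left out, the 1 being Serpina3n in each case. Over all genes the calls for these comparisons were 501, 678 and 614 in the reported fits, 1137, 1619 and 1365 by DESeq2 and 41, 71 and 368 by limma, and 2193, 2505 and 2747 at an unadjusted p. Without treatment 0 members were called under every alternative, 0 to 0 with a library left out included. The interaction of Serpina3h, no exact size since untreated Tmem173iΔmye libraries were at the floor, turned to -0.41 by limma, and to -0.14 and -0.03 without untreated or colitic Tmem173fl/fl replicate 3. With a library left out it ran from -0.14 to 0.56, and in untreated mice Serpina3g ran from -0.33 to 0.15 (0.12 without Tmem173iΔmye replicate 1), Serpina3k from -1.94 to 0.055 (the latter without Tmem173fl/fl replicate 1) and Serpina3n from -0.42 to 0.50. The causes were not tested.

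Same-numbered libraries did not deviate together (correlations of -0.12 to 0.12). For DSS in Tmem173fl/fl mice 0 of 6 libraries were closest to their own number, and for the untreated genotypes 1 of 6 was. No pairing by number was seen, though so few libraries cannot exclude one. With the number as a replicate block the calls were 5 members for DSS with the Cre present (Serpina3c, f and g gained, Serpina3h lost at an edgeR adjusted p of 0.0562), with 1369 genes in all, 2 for genotype in colitis (849 genes) and 1 in the interaction (Serpina3n, -1.90, adjusted p 0.0305, edgeR, with 590 genes). Where colitic Tmem173iΔmye libraries enter, numbers 3 and 5 have no partner within the genotype or within the treatment and add nothing to the blocked 2-group contrasts.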
